A study of Mus musculus with 8 samples.

Results

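Hemoglobin, the oxygen carrier of red cells, is built from alpha-globin and beta-globin chains that each hold a heme group. In the adult mouse the alpha chains come from Hba-a1 and Hba-a2 and the beta chains from a pair of adult beta genes, which are Hbb-bs and Hbb-bt in strains with the single (Hbb-s) haplotype and Hbb-b1 and Hbb-b2 in strains with the diffuse (Hbb-d) haplotype. C57BL/6 mice carry the single haplotype. Ahsp, the alpha-globin stabilizing protein, is a chaperone that holds free alpha chains until a beta chain is found. These genes are switched on strongly as erythroid progenitors mature, and hematopoietic stem cells (HSCs) stand many divisions before that step. The 7 symbols Hba-a1, Hba-a2, Hbb-b1, Hbb-b2, Hbb-bs, Hbb-bt and Ahsp were looked up among the 15142 genes held by all 3 expression tables, and 3 of the 7 had a row: Hba-a1, Hbb-b1 and Hbb-bt. No row under the other 4 symbols was found in the tables used, so Hba-a2, Hbb-b2, Hbb-bs and Ahsp were not analysed here as rows of their own.

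RNA was sequenced from HSCs sorted from wild-type C57BL/6 mice, in 8 libraries. The 3 control BM HSC libraries came from the bone marrow (BM) of mice that the labels give as PBS-treated and the study's text calls untreated, the 3 PHZ BM HSC libraries from the marrow of mice given phenylhydrazine (PHZ), and the 2 PHZ SP HSC libraries from the spleen (SP) of PHZ-treated mice. PHZ is a hemolytic agent that destroys circulating red cells. It was given at 60 mg/kg by intraperitoneal injection on 2 consecutive days, and cells were taken on day 3 after the last injection. The mice were 8 to 12 weeks of age in the study's methods and of both sexes. HSCs were sorted as lineage-negative, Sca-1+, c-kit+, CD150+ and CD48-/low cells, with Ter119 (red cells), B220 (B cells), Gr-1 (granulocytes), CD2, CD3 and CD8 (mainly T cells) as the lineage markers gated out. HSCs of untreated spleens were not analysed here, so the effect of PHZ and the effect of the organ cannot be told apart in the comparison of PHZ SP HSCs with control BM HSCs. The labels do not say whether each library came from its own mouse, so p-values measure the spread between these libraries, which may be technical. Libraries held 8216167 to 13199736 reads, of which 43.3 to 48.6% lay in the ribosomal RNA precursor Rn45s, and 11400 to 12259 genes had at least 10 reads. The 5 HSC markers Kit, Ly6a, Slamf1, Procr and Hlf summed to 276 to 376 FPKM (a level per length: fragments per kilobase, corrected for sequencing depth) in control BM HSCs, 339 to 367 FPKM in PHZ BM HSCs and 402 to 422 FPKM in PHZ SP HSCs. None of the 12 HSC markers tested passed the threshold in any comparison, where between 86 and 311 of all 11347 genes tested did.

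The adult globin genes are near-identical copies, and this limits what a row can tell. Hba-a1 (chr11:32283511-32284465, plus strand) and Hba-a2 (chr11:32296489-32297298, plus strand) lie in the alpha-globin cluster, and Hbb-bt (chr7:103812524-103813996, minus strand) and Hbb-bs (chr7:103826534-103828096, minus strand) in the beta-globin cluster, all positions being those of GENCODE vM21 on GRCm38, the assembly of mm10. Each has 3 exons in its main transcript. The coding sequences of Hba-a1 and Hba-a2, of 429 bases each, differed at 1 base (99.8% identity), and so did those of Hbb-bs and Hbb-bt, of 444 bases each. The stretches below are shown because they hold those differences. Each is 60 coding bases written 5′ to 3′ on the gene's strand, from exon 3, with the differing base in capitals. The alpha pair spans coding bases 351 to 410 (chr11:32284313-32284372 in Hba-a1, chr11:32297130-32297189 in Hba-a2) and the beta pair coding bases 385 to 444 (chr7:103826665-103826724 in Hbb-bs, chr7:103812656-103812715 in Hbb-bt).
Hba-a1: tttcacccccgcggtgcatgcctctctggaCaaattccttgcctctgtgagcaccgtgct
Hba-a2: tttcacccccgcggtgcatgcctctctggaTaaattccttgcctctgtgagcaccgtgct
Hbb-bs: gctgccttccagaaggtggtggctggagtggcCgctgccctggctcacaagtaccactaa
Hbb-bt: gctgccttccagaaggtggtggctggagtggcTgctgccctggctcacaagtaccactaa

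Reads shorter than a transcript often cannot tell the copies apart. Of the 505 windows of 50 bases in the main Hba-a2 transcript, 86.9% were found letter for letter in that of Hba-a1. Of the 579 such windows in the main Hbb-bs transcript, 65.8% were found in that of Hbb-bt, and no window of Hba-a1 was found in Hbb-bs. A short read from a shared window fits both copies equally well, and how such reads were counted is not given in the sources used here. Levels of a single globin copy are therefore uncertain, and sums over the copies rest on firmer ground.

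The values themselves show which exons each row was scaled by. A value of 1 read in FPKM depends on the length given to the gene, and for 1453 of 1566 genes with a single annotated transcript (92.8%) the length worked back from the values equalled the GENCODE length within 0.5 bases. For the row named Hba-a1 it was 1479 bases, whereas the exons of Hba-a1 cover 812 bases and those of Hba-a2 cover 667 bases, which together make 1479. For the row named Hbb-b1 it was 768 bases, the exon length of Hbb-bs. For the Hbb-bt row it was 703 bases, the exon length of Hbb-bt itself. By this match of lengths, the Hba-a1 row spans both adult alpha genes, and the Hbb-b1 and Hbb-bt rows are the adult beta pair that C57BL/6 mice carry. The match is a description of the lengths and does not show how reads were assigned. The rows are called below by the symbols of the tables.

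The promoters of the adult alpha and beta genes are shown because rows of both clusters moved together across the libraries. The 100 bases before the RefSeq start in GRCm38.p6 are given 5′ to 3′ on the gene's strand for Hba-a2 (chr11:32296392-32296491, plus strand) and Hbb-bs (chr7:103827929-103828028, minus strand), with matches to the TATA box (spelled ATATAA), the box spelled CCAAT and the box spelled CACCC in capitals.
Hba-a2: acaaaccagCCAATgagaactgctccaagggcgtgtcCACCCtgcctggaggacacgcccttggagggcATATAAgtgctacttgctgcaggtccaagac
Hbb-bs: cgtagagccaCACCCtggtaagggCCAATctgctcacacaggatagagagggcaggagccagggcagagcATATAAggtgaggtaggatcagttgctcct

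These motifs, and the GATA factor motif spelled GATAA, were searched on both strands in the same 100 bases of all 32851 RefSeq promoters. The TATA box was found in 3.74% of them, the CCAAT box in 18.9%, the CACCC box in 27.2% and the GATA motif in 8.55%. The promoters of Hba-a1, Hba-a2, Hbb-bs and Hbb-bt each held the first 3 motifs, and none of the 4 held the GATA motif in this window. In the alpha promoters the CCAAT box lay upstream of the CACCC box, and in Hbb-bs the CACCC box lay upstream of the CCAAT box. The CACCC letters are part of the motif that Klf1 binds in erythroid cells, and a match here is a description of the letters only. Hba-a1 and Hba-a2 shared an unbroken run of 247 bases in the 250 bases before their starts, whereas the longest run shared by Hbb-bs and Hbb-bt was 14 bases.

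Adult globin RNA was present in every library and was highest in PHZ SP HSCs. Levels per length (FPKM) were put on a common scale across the 8 libraries before they were compared. The Hba-a1 row stood at 96.8, 35.7 and 83.4 FPKM in control BM HSC replicates 1 to 3, at 68.6, 132 and 98.2 FPKM in PHZ BM HSC replicates 1 to 3, and at 291 and 357 FPKM in PHZ SP HSC replicates 1 and 2. The Hbb-b1 row stood at 444, 180 and 211 FPKM in control BM HSCs, at 202, 449 and 299 FPKM in PHZ BM HSCs, and at 1135 and 1345 FPKM in PHZ SP HSCs. The Hbb-bt row stood at 176, 72.8 and 113 FPKM in control BM HSCs, at 95.6, 180 and 158 FPKM in PHZ BM HSCs, and at 579 and 731 FPKM in PHZ SP HSCs. In each of these rows both spleen libraries lay above all 6 marrow libraries, and the control BM and PHZ BM libraries overlapped. In bulk libraries a larger number of globin-bearing cells and more globin RNA per cell cannot be told apart.

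**Figure D1:**
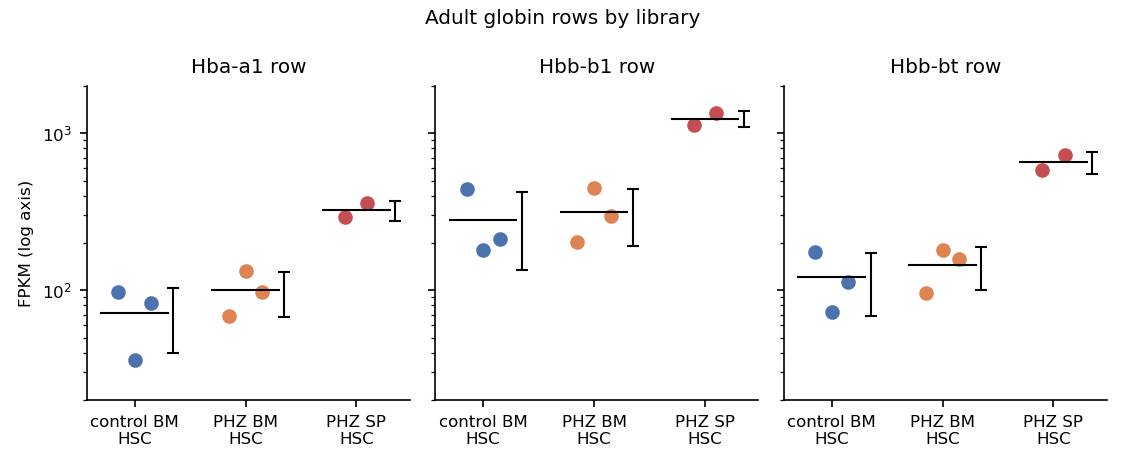
FPKM of the Hba-a1, Hbb-b1 and Hbb-bt rows in each library (points, log axis), with the group mean (line) and its SD (bar; n = 3, 3 and 2). Both PHZ SP HSC libraries lie above all marrow libraries in every panel, from 291 FPKM upwards for Hba-a1, while the control BM and PHZ BM points overlap.

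The spread within the marrow groups was wide. The highest control library exceeded the lowest 2.71-fold for Hba-a1, 2.47-fold for Hbb-b1 and 2.42-fold for Hbb-bt, and the corresponding folds among PHZ BM HSCs were 1.93, 2.22 and 1.88. The 2 spleen libraries differed by 1.23-fold, 1.18-fold and 1.26-fold. Control replicate 2 was the lowest library of all 8 for each row. Across the libraries the rows went up and down together: Pearson's r of log2(FPKM + 1) over the 8 libraries was 0.96 for Hba-a1 with Hbb-b1, 0.98 for Hba-a1 with Hbb-bt and 0.99 for Hbb-b1 with Hbb-bt, and 0.82, 0.93 and 0.94 once each group's mean was subtracted. These are descriptions, since the rows share libraries and the copies of a pair share reads.

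The beta rows were abundant RNAs in marrow HSCs as well. Hbb-b1 took places 44 to 127 among the 15142 genes ordered by FPKM in control BM HSCs, places 48 to 115 in PHZ BM HSCs, and places 11 and 7 in PHZ SP HSC replicates 1 and 2. Hbb-bt took places 128 to 345 in control BM HSCs, 128 to 263 in PHZ BM HSCs, and 34 and 25 in the spleen. Hba-a1 took places 258 to 811 in control BM HSCs and places 84 and 62 in the spleen. As a share of reads outside Rn45s, the 3 rows took 0.116, 0.0470 and 0.0711% in control BM HSC replicates 1 to 3, 0.0624, 0.127 and 0.0876% in PHZ BM HSCs, and 0.318 and 0.388% in PHZ SP HSCs. The mean share was 0.0779% ± 0.0349 (SD, n = 3), 0.0924% ± 0.0327 (SD, n = 3) and 0.353% ± 0.05 (SD, n = 2). Globin RNA thus took well under 1% of these reads in every library.

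The comparison of splenic HSCs after PHZ with HSCs of control marrow asks how HSCs found in the spleen of anemic mice differ from those at rest in marrow. All 3 globin rows were higher in PHZ SP HSCs. The mean of the Hba-a1 row was 72 ± 32.1 FPKM in the controls (SD, n = 3) and 324 ± 47.0 FPKM in the spleen (SD, n = 2). Its log2 fold change with standard error was 2.27 ± 0.37 (limma with Benjamini-Hochberg adjustment, adjusted p = 0.0240). For Hbb-b1 the means were 278 ± 145 and 1240 ± 148 FPKM, and the log2 difference was 2.26 ± 0.36 (limma, adjusted p = 0.0226). For Hbb-bt they were 121 ± 52.0 and 655 ± 107 FPKM, with the largest log2 difference of the 3 rows, 2.51 ± 0.33 (limma, adjusted p = 0.00649). In means these were 4.50-fold, 4.45-fold and 5.43-fold differences, and the lower spleen library exceeded the highest control library 3.00-fold, 2.55-fold and 3.29-fold. Of the 11347 genes tested, 0.626% were called higher in PHZ SP HSCs in this comparison, against 3 of 3 globin rows. By size of the log2 fold change Hbb-bt, Hba-a1 and Hbb-b1 were the 23rd, 28th and 29th highest of these genes.

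These calls rested on both spleen libraries. Without PHZ SP HSC replicate 1 none of the 3 rows passed (limma, adjusted p from 0.0849 for Hbb-bt to 0.165 for Hba-a1 and Hbb-b1), and none passed without replicate 2 either. The differences themselves stayed about as large, with log2 fold changes of 2.42 for Hba-a1, 2.39 for Hbb-b1 and 2.68 for Hbb-bt without replicate 1, and 2.12, 2.14 and 2.35 without replicate 2, in fits whose spleen group was 1 library. Hbb-bt was called in every other setting tried, whereas Hba-a1 and Hbb-b1 lost their calls with a smaller pseudocount or without the filter on low values, and Hbb-b1 also without control replicate 2 or 3 (limma, adjusted p = 0.0576 and 0.0684).

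The comparison of spleen with marrow within PHZ-treated mice holds the treatment fixed and asks about the organ. Hbb-b1 had a mean of 317 ± 125 FPKM in PHZ BM HSCs (SD, n = 3) and rose to the spleen level given above by 2.04 ± 0.36 on the log2 scale (limma, adjusted p = 0.0268). Hbb-bt had a mean of 144 ± 43.6 FPKM there and rose by 2.21 ± 0.33 (limma, adjusted p = 0.0126). Hba-a1 stood at 99.7 ± 31.9 FPKM in PHZ BM HSCs, and its log2 fold change of 1.73 ± 0.37 missed the threshold (limma, adjusted p = 0.0569; it passed with voom on reads, adjusted p = 0.00983, and in a fit of only these 2 groups, adjusted p = 0.0207), although both spleen libraries lay at least 2.20-fold above the highest PHZ BM library. Here 0.608% of genes were called higher in PHZ SP HSCs, against 2 of 3 globin rows. Leaving out either spleen library, or the filter on low values, ended both calls, and the Hbb-b1 call was also lost without PHZ BM HSC replicate 1 or 3. With a spleen library left out, the log2 fold changes were still 1.91 to 2.16 for Hbb-b1 and 2.05 to 2.38 for Hbb-bt, and the filter does not enter them. This comparison and the one before share the spleen libraries, so the 2 sets of calls are not independent.

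PHZ treatment without a change of organ gave no call among the globin rows. From control BM HSCs to PHZ BM HSCs the log2 fold change was 0.53 for Hba-a1 (95% interval -0.19 to 1.26; limma, adjusted p = 0.460), 0.23 for Hbb-b1 (-0.49 to 0.94; adjusted p = 0.785) and 0.30 for Hbb-bt (-0.35 to 0.95; adjusted p = 0.662). The count was 0 of 3 rows at an adjusted p below 0.05 and also 0 of 3 at an unadjusted p below 0.05, by limma and by limma's voom method on reads, against 1.48% of all genes called higher in PHZ BM HSCs by limma and 1886 of 11347 genes at an unadjusted p below 0.05 in either direction. The intervals leave room for a rise of more than 1 on the log2 scale in Hba-a1, so these libraries do not show that globin RNA was the same in both marrow groups. These values moved with single libraries: without control replicate 2 the log2 fold change was 0.10 for Hba-a1, -0.03 for Hbb-b1 and -0.02 for Hbb-bt, and without control replicate 1 it was 0.80, 0.62 and 0.61.

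**Figure D2:**
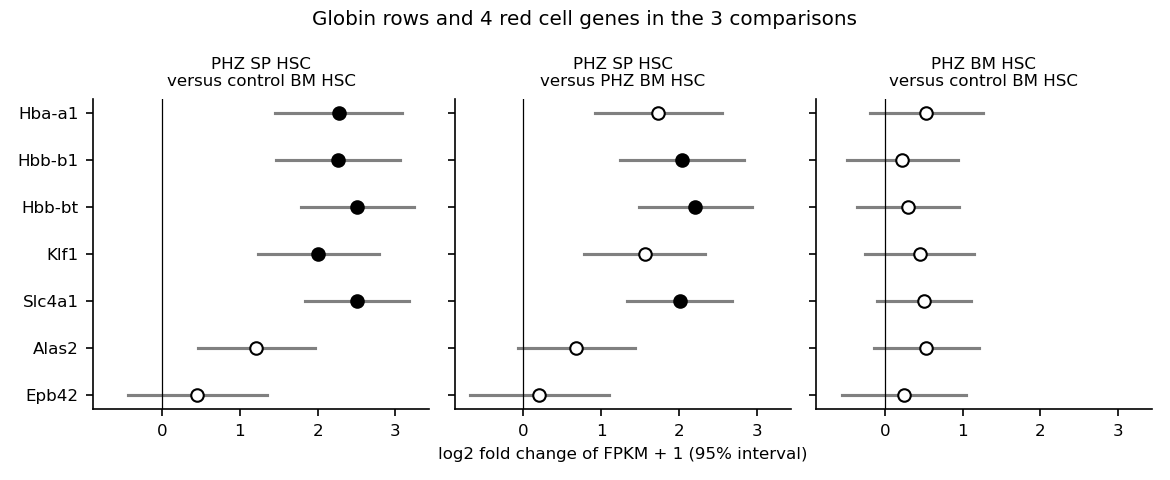
Log2 fold change of FPKM + 1 (point) with its 95% interval (line) for the 3 globin rows and for Klf1, Slc4a1, Alas2 and Epb42 in each comparison; filled points have an adjusted p below 0.05. The globin points lie between 1.73 and 2.51 in both spleen comparisons and between 0.23 and 0.53 between the marrow groups.

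The balance of the chains was then compared, since excess of either chain is harmful to red cells. The ratio of the Hba-a1 row to the summed beta rows was 0.156, 0.142 and 0.257 in control BM HSC replicates 1 to 3, 0.230, 0.210 and 0.215 in PHZ BM HSCs, and 0.170 and 0.172 in PHZ SP HSCs. Counted in reads rather than per length the ratio ran from 0.279 to 0.511 over all libraries. Because the alpha row appears to be divided by the exon length of both alpha genes, a ratio below 1 in FPKM does not give the ratio of chains, and only the comparison between libraries can be read. The 2 spleen libraries lay within the range of the controls, with a difference in mean log2 ratio of -0.06 (exact two-sided permutation p = 1.0, adjusted over the 3 comparisons 1.0), which turned to 0.20 without control replicate 3. They lay below all 3 PHZ BM libraries, with a difference of -0.35 (exact permutation p = 0.10, the smallest that 2 against 3 libraries can give, adjusted 0.30). The PHZ BM libraries overlapped the controls (difference 0.29, exact permutation p = 0.40, adjusted 0.60). With a smallest possible p of 0.10 in each comparison, no difference in this ratio could pass a threshold of 0.05.

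Within the beta pair the share of Hbb-bt was nearly level. Hbb-bt made up 28.4, 28.8 and 34.8% of the summed beta FPKM in control BM HSC replicates 1 to 3, 32.1, 28.6 and 34.5% in PHZ BM HSCs, and 33.8 and 35.2% in PHZ SP HSCs. The 3 groups overlapped, and the mean differed by 3.81 percentage points between spleen and control marrow (exact permutation p = 0.30, adjusted 0.60) and by 2.76 points between spleen and PHZ marrow (exact permutation p = 0.40, adjusted 0.60). While the summed beta level ranged from 253 to 2076 FPKM, the Hbb-bt share thus stayed between 28.4 and 35.2%. Reads that fit both beta genes can draw the 2 rows together, and their part in this was not tested.

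**Figure D3:**
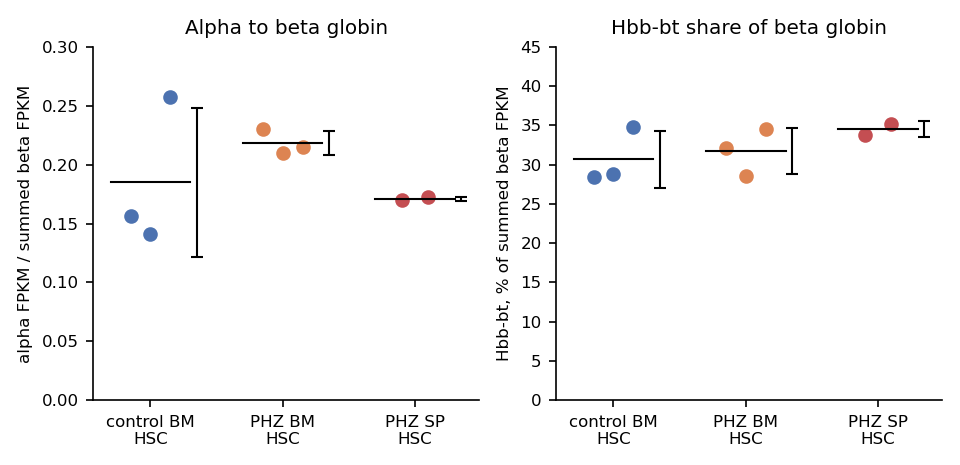
Left, ratio of the Hba-a1 FPKM to the summed Hbb-b1 and Hbb-bt FPKM in each library; right, Hbb-bt as a percent of the summed beta FPKM; lines are group means and bars SDs (n = 3, 3 and 2). The spleen ratios, 0.170 and 0.172, lie below the PHZ BM libraries and inside the control range, and the Hbb-bt share stays between 28.4 and 35.2%.

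Embryonic and minor globins with a row each stood at 3.81 FPKM or lower in every library. Of the 11 listed genes, 4 had a row (Hbq1a, Hbq1b, Hbb-bh1 and Cygb), and no row was found for Hba-x, Hbb-y, Hbb-bh0, Hbb-bh2, Hbb-bh3, Mb or Ngb, which were not analysed here. Hbq1b, a theta-like gene of the alpha cluster whose function is not settled, was the only listed gene that passed the filter on low values. It stood at 3.81, 0.153 and 0.429 FPKM in control BM HSCs, 1.45, 0.294 and 1.49 FPKM in PHZ BM HSCs, and 0.370 and 1.33 FPKM in PHZ SP HSCs. These values come from 1 to 27 reads, the groups overlapped, and none of the comparisons passed (limma, adjusted p from 0.925 to 0.999). Hbq1a, a near copy of Hbq1b whose reads may be shared with it, was listed at 0 in all 6 marrow libraries and had 3 and 5 reads (0.444 and 0.796 FPKM) in the spleen libraries. Hbb-bh1, the embryonic beta-like gene of primitive red cells, was listed at 0 in 7 libraries and at 2.51 FPKM in PHZ SP HSC replicate 2. The way reads were worked back here needs values in at least 2 libraries, so its reads are not given. Cygb, the cytoglobin of fibroblast-like cells, was above 0 in control replicate 1 (0.351 FPKM) and PHZ SP HSC replicate 2 (0.289 FPKM) only. At these levels a difference in the embryonic genes was not detectable. The rise in globin RNA in the spleen was thus seen in the adult rows, and the levels of the other globins were too low for a comparison.

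Among 20 transcription factors and cofactors of the globin genes, 8 were higher and 12 lower in PHZ SP HSCs than in control BM HSCs by sign, 1 passed the test as higher and none as lower, and the median log2 fold change was -0.16 against a median near 0.00 for all genes. Of the 11347 genes tested, 0.626% were called higher in this comparison and 15 genes lower. The gene that passed was Klf1, the erythroid activator of the adult beta-globin promoter. Klf1 stood at 0.802, 1.30 and 3.05 FPKM in control BM HSCs, 3.49, 1.95 and 2.22 FPKM in PHZ BM HSCs, and 10.1 and 8.54 FPKM in PHZ SP HSCs. Its log2 fold change against the controls was 2.01 ± 0.36 (limma, adjusted p = 0.0361), and against PHZ BM HSCs it was 1.56 and missed the threshold (limma, adjusted p = 0.0709). Gata1, the erythroid GATA factor, was not called in this comparison, with a log2 fold change of 0.88 (limma, adjusted p = 0.293).

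In the other comparisons of this list, 1 regulator each was called. Of the 11347 genes tested, 42 were called lower in PHZ SP than in PHZ BM HSCs. Between the marrow groups 1.48% were called higher in PHZ BM HSCs. Ldb1, which bridges the globin enhancers and promoters, fell in the spleen relative to PHZ BM HSCs, by 1.07 on the log2 scale (limma, adjusted p = 0.0496), with 7.92 and 5.90 FPKM in the spleen libraries and 13.4 to 16.8 FPKM in PHZ BM HSCs. Gata2, the GATA factor of stem and early progenitor cells, was at 36.2 to 47.7 FPKM in control BM HSCs and at 66.7 to 86.3 FPKM in PHZ BM HSCs, a rise of 0.86 on the log2 scale (limma, adjusted p = 0.0180). The spleen libraries held 58.0 and 72.9 FPKM of Gata2.

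Of 10 genes that tune globin translation to heme or remove surplus globin, none was called between PHZ SP HSCs and control BM HSCs, and Ppp1r15a alone was called in the other comparisons. Calls over all 11347 genes tested numbered 86 in spleen versus control, 111 in spleen versus PHZ BM and 311 between the marrow groups. Ppp1r15a, the phosphatase subunit that restores translation after eIF2 alpha is phosphorylated, stood at 7.0, 2.49 and 4.42 FPKM in control BM HSCs, 50.5, 44.8 and 36.2 FPKM in PHZ BM HSCs, and 12.3 and 16.0 FPKM in PHZ SP HSCs. Its log2 fold change was 3.06 ± 0.28 from control BM to PHZ BM HSCs (limma, adjusted p = 3.03e-04) and fell by 1.56 from PHZ BM to PHZ SP HSCs (limma, adjusted p = 0.0443). Its order of groups, highest in PHZ marrow, was not that of the globin rows.

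None of the 14 genes of heme synthesis and transport was called in any comparison. At most 311 of all 11347 genes tested were called in any comparison, so a count of 0 says little about so short a list. By sign 10 of the 14 were higher in PHZ SP HSCs than in control BM HSCs and 11 of 14 than in PHZ BM HSCs, with median log2 fold changes of 0.43 and 0.24. Cpox and Alas2, enzymes of the heme pathway, had the smallest p of the list. Cpox stood at 0.757 to 2.11 FPKM in marrow and at 2.98 and 4.64 FPKM in the spleen, and missed the threshold against PHZ BM HSCs (limma, adjusted p = 0.0787). Alas2, the erythroid form of the rate-limiting enzyme, had a log2 fold change of 1.21 against the controls (limma, adjusted p = 0.122), with 5.81 and 7.12 FPKM in the spleen and 1.24 to 3.45 FPKM in control marrow.

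Genes that clear hemoglobin and heme, and genes that flank the alpha-globin cluster, gave no call in any comparison. With few of all genes called, as given above, this too says little about lists of 8 genes. Of the 8 clearance genes tested, Slc40a1, the iron exporter ferroportin, and Blvrb, which reduces biliverdin, had the smallest p over the 3 comparisons, with log2 fold changes of 0.84 and 0.37 in PHZ SP HSCs against the controls (limma, adjusted p = 0.319 and 0.396). Of the 8 flanking genes tested, Snrnp25, a spliceosome component, and Polr3k, a subunit of RNA polymerase III, had the smallest p over the 3 comparisons. Snrnp25 had a log2 fold change of -0.52 from control BM to PHZ BM HSCs (limma, adjusted p = 0.131) and Polr3k of 0.52 from PHZ BM to PHZ SP HSCs (limma, adjusted p = 0.286), and against control BM HSCs the spleen values were -0.12 and 0.13 (limma, adjusted p = 0.803 and 0.791). Nprl3, which holds the major alpha-globin enhancers in its introns, stood at 3.33 to 4.13 FPKM in control BM HSCs and at 4.76 and 4.01 FPKM in PHZ SP HSCs (log2 fold change 0.22; limma, adjusted p = 0.695). No flanking gene was called in the comparison in which the alpha row was, and the difference between them was not itself tested.

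Some markers of red cells were higher in the spleen libraries, while most did not pass the test. Of 23 tested red cell and erythroblast markers other than the globins, 21 were higher by sign in PHZ SP HSCs than in control BM HSCs. The test was passed by 5, all as higher: Slc4a1, Cldn13, Ermap, Tfrc and Trim10. Among all 11347 genes tested, 0.626% were called higher in this comparison. The 23 markers summed to 451 to 558 FPKM in control BM HSCs, 386 to 472 FPKM in PHZ BM HSCs and 634 to 708 FPKM in PHZ SP HSCs. In the marrow this sum did not follow the globins, since control replicate 2 had the lowest globin sum of all libraries, 288 FPKM, and the highest marker sum among the marrow libraries, 558 FPKM. Ermap reached 1 FPKM in the 2 spleen libraries alone, so it entered the test through the group in which it was high, and its call is no support. Slc4a1, the band 3 anion exchanger, stood at 2.11, 2.37 and 4.09 FPKM in control BM HSCs, 2.87, 5.53 and 5.05 FPKM in PHZ BM HSCs, and 19.1 and 21.9 FPKM in PHZ SP HSCs (log2 fold change 2.51 against the controls; limma, adjusted p = 0.00390). Slc4a1 was also higher against PHZ BM HSCs (log2 fold change 2.01; limma, adjusted p = 0.0140), as was Cldn13, a claudin of erythroid cells (log2 fold change 2.49; limma, adjusted p = 0.0102). Tfrc, the transferrin receptor that brings in iron, had a log2 fold change of 2.04 against the controls (limma, adjusted p = 0.0411). Epb42, which anchors band 3, was not called, with a log2 fold change of 0.45 (limma, adjusted p = 0.628).

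The 3 defining markers of late red cells reported here, Slc4a1, Epb42 and Alas2, summed to 4.47 to 6.93 FPKM in control BM HSCs, 6.42 to 12.3 FPKM in PHZ BM HSCs and 25.4 to 30.8 FPKM in PHZ SP HSCs, and none of the 3 was at 0 in every library. Their part in the globin result was not tested. Slc4a1 made up most of the spleen sums, with 19.1 and 21.9 FPKM. Epb42 stood at 0.512 and 1.72 FPKM in the spleen and at 0.132 to 1.34 FPKM in marrow, so it overlapped. The order of libraries was not the same for globins and markers within the controls: replicate 1 had the highest summed globin level (717 FPKM, against 288 and 408 FPKM in replicates 2 and 3), whereas replicate 3 had the highest summed marker level (6.93 FPKM, against 5.69 and 4.47 FPKM in replicates 1 and 2). Among PHZ BM HSCs replicate 2 was highest in both (762 and 12.3 FPKM).

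**Figure D4:**
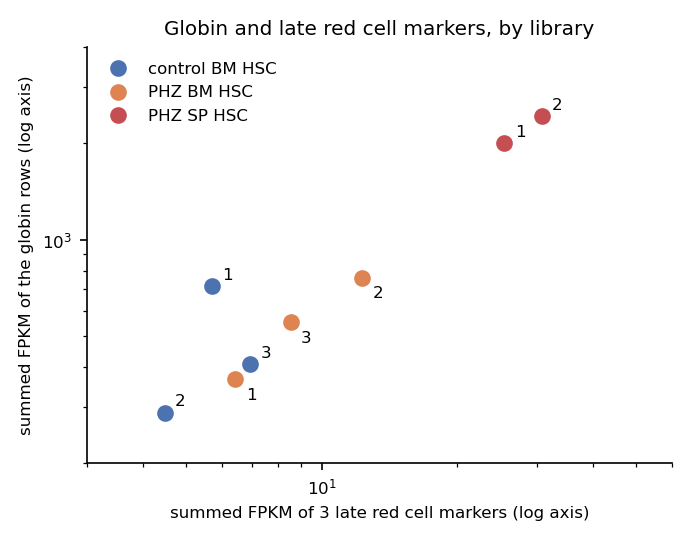
Summed FPKM of the 3 globin rows against the summed FPKM of Slc4a1, Epb42 and Alas2 in each library, both on log axes; numbers are replicates. The spleen libraries are highest in both, and control replicate 1 has a globin sum of 717 FPKM at a marker sum of 5.69 FPKM.

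Markers of other cell types were also compared, and their part in the globin result was not tested. The sort gated out cells with several lineage markers, as given above. Neutrophil markers were higher by sign in PHZ SP HSCs for 8 of 8 tested, against both marrow groups, and summed to 1302 and 1667 FPKM in the spleen against 319 to 656 FPKM in control BM HSCs and 338 to 842 FPKM in PHZ BM HSCs. S100a8, a calcium-binding protein abundant in neutrophils, was the only marker of this list called. Its log2 fold change was 1.72 against control BM HSCs (limma, adjusted p = 0.0422) and 1.77 against PHZ BM HSCs (limma, adjusted p = 0.0281). Among all 11347 genes tested, 0.626% were called higher in the first of these comparisons and 0.608% in the second. Klrb1c, the NK1.1 receptor of NK cells, stood at 14.7 and 18.4 FPKM in the spleen. Control BM HSCs held 0.555 to 1.40 FPKM of it (limma, adjusted p = 8.66e-04). Nkg7, the other T and NK marker tested, had a log2 fold change of -0.26 in that comparison (limma, adjusted p = 0.775). Against PHZ BM HSCs the log2 fold change was 2.29 for Klrb1c (limma, adjusted p = 0.00477) and -0.36 for Nkg7 (limma, adjusted p = 0.731). The summed T and NK list overlapped between the groups. Macrophages engulf red cells. Of their 6 tested markers 3 were higher by sign against the controls and none was called. Cd68 stood at 34.4 and 57.6 FPKM in the spleen against 0 to 8.48 FPKM in control BM HSCs (limma, adjusted p = 0.0582), and C1qb at 0.0822 and 0 FPKM against 0.188 to 2.93 FPKM. The summed macrophage level was 40.7 to 67.4 FPKM in the spleen and 8.88 to 19.7 FPKM in control BM HSCs. Cd68 made up most of the sum in both spleen libraries. Both tested B cell markers, Cd79a and Cd79b, were higher by sign in the spleen than in control BM HSCs (limma, adjusted p = 0.162 and 0.812), and neither was called. Of 5 tested megakaryocyte markers, Pf4 and Ppbp fell from control BM to PHZ BM HSCs by 1.06 and 1.46 on the log2 scale (limma, adjusted p = 0.0424 and 0.0265), and none was called in the spleen comparisons. Among all 11347 genes tested, 143 were called lower in PHZ BM than in control BM HSCs.

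Among the other 11344 genes tested, the level of Gimap4, a GTPase of lymphocytes, was the most like the summed globin level, with a Pearson's r of 0.99 between log2(FPKM + 1) values over the 8 libraries. Gimap4 stood between 2.29 and 7.01 FPKM in the marrow libraries and at 24.5 to 34.8 FPKM in the spleen. The next were Sp100 (r = 0.97), Vwa5a (r = 0.96), H2ac8 (r = 0.95) and Redrum (r = 0.94), the last a long noncoding RNA known from red cell maturation. Redrum was at 0 to 0.312 FPKM in marrow and at 1.24 to 1.68 FPKM in PHZ SP HSCs, and so entered the test through the spleen libraries alone. Of these 5 genes Gimap4 was the only one called, in both spleen comparisons (limma, adjusted p = 0.00396 against control BM HSCs and 0.0114 against PHZ BM HSCs). Such values of r largely restate that the spleen libraries were high and the marrow libraries low, and no p is given for them.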

How the data were processed

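RNA of sorted HSCs was amplified by SMART-Seq2, a full-length method without molecular identifiers, so counts include PCR copies and their precision covers counting error only. The authors aligned reads to mm10 with STAR and deposited FPKM values per gene in 3 tables scaled separately with DESeq2; the counter, annotation and handling of multiply aligned reads are not given in the sources used here. Tables of the authors' own fold changes and p-values were not used. Whole reads were worked back from the FPKM steps, each gene's step being picked so that its values lay within 0.01 reads. For the 107845 values in genes above 0 in at least 2 libraries, this match follows from the choice and is no check. The 306 genes with a value in 1 library alone give no step. All 8 libraries were put on a single median-of-ratios scale, which moved values by at most 1.05%. Genes with at least 1 FPKM in 2 libraries were tested with limma (trend, robust) on log2(FPKM + 1), all libraries in a single fit, with Benjamini-Hochberg adjustment over 11347 genes and a threshold of 0.05. Because 1 FPKM was added, fold changes of genes with low values come out smaller than they are. Ratios were compared by exact permutation. The members and gene lists were chosen with earlier results of these data known. Named genes were all members, all embryonic and minor globins, listed genes past the threshold (otherwise the 2 with the smallest p) and the 5 genes most like the summed globins; Gata1, Epb42 and Nprl3, and the Hbb-bt and read shares, were added after their values were seen. Some listed genes are not reported here and enter no list count or sum. R 4.3.3, limma 3.58.1 and Python 3.11.15 were used.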

Additional observations from a re-analysis of the deposited data

How the results depend on the processing

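In PHZ SP HSCs versus control BM HSCs, 3 of 3 globin rows were called; only 1, Hbb-bt, was called with a pseudocount of 0.1 FPKM, without a filter on low values, or with the replicate number as a block, and 0 to 3 with a library left out (0 without either spleen library). In PHZ SP versus PHZ BM HSCs, 2 were called; the count was 0 without the filter, 1 with the block, 3 with voom or when just the 2 groups compared were fitted (Hba-a1 then being called too), and 0 to 3 with a library left out. With the beta rows summed, leaving 2 rows, both were called in the spleen versus control comparison, and 1, the summed beta row, in spleen versus PHZ BM, where Hba-a1 was uncalled as before. Where a spleen library was left out, the other is assumed to vary like the other groups. The unfiltered fit tested more genes; otherwise the cause was not tested. Same-numbered libraries did not deviate together (r from -0.0079 to 0.060 over 7 pairs), so the numbers do not pair them; with the replicate block Hbb-bt kept an adjusted p of 0.0391 against the controls and 0.0492 against PHZ BM HSCs, and Hba-a1 and Hbb-b1 passed in neither. Deposited scales, a scale by reads outside Rn45s, voom and a fit of only 2 groups left every globin direction as given. Between the marrow groups, no fit called a row; with a library left out, the log2 fold change ran from -0.062 (without PHZ BM replicate 2) to 0.623 for Hbb-b1, which was -0.03 without control replicate 2, and from -0.016 (without control replicate 2) to 0.615 for Hbb-bt, and from 0.098 to 0.804 for Hba-a1. With a library left out, the log2 alpha to beta difference ran from -0.23 to 0.20 for spleen versus control, -0.38 to -0.32 for spleen versus PHZ BM, and 0.12 to 0.56 between the marrow groups. The Hbb-bt share, an added quantity, differed between the marrow groups by 1.06 percentage points, and by -0.342 (without PHZ BM replicate 3) to 3.13 with a library left out, being -0.098 without control replicate 1; it ran from 2.66 to 5.89 for spleen versus control (5.89 without control replicate 3) and from 1.18 to 4.15 for spleen versus PHZ BM (without PHZ BM replicate 2 and without replicate 3, respectively). Having only 2 spleen libraries limits every spleen value, and embryonic globins were too sparse to compare.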
